A study of Mus musculus with 16 samples.

Results

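Cd69 and Cd5 encode surface proteins of T lineage cells that are widely read as reporters of signal through the T cell receptor (TCR), and they are the 2 genes described here, out of 19531 genes with a probe set of their own on the array. Both were found by their gene symbols, and each is given by its probe set of highest mean signal (10548333 for Cd69 and 10466040 for Cd5). The samples were double-negative thymocytes, the CD4-CD8- cells of the thymus that have not yet become CD4+CD8+ cells, from mice 4 weeks of age. Mice were B6g7, which are C57BL/6 animals with the H2g7 MHC haplotype of NOD, or NOD, the strain that develops autoimmune diabetes. Mice of each strain either had no transgene (non-Tg) or carried BDC2.5 TCR tg (BDC), the rearranged receptor genes of a CD4+ T cell clone that recognises an islet antigen. Thymocytes were depleted of CD4+ and CD8+ cells with complement, and lineage-negative cells were then sorted as DN2-3 (CD25+) or DN4 (CD44-CD25-). The 8 groups of strain, transgene and stage had 2 arrays each. Every non-Tg array came from a female, while in each BDC group replicate 1 was male and replicate 2 female. The labels do not say whether the replicates were separate animals or pools, so a p-value here measures the spread of these samples alone, which may be technical. They also do not give the members of the lineage mixture, or the promoter and the stage at which the transgene was expressed.

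Double-negative cells rearrange the TCR beta locus at the CD25+ stage. A beta chain that pairs with the invariant pre-TCR alpha chain signals through CD3, and the cells then lose CD25, divide and move on to DN4. A rearranged transgenic receptor can reach the surface in double-negative cells before the cell has made a receptor of its own. CD69 is a C-type lectin that appears soon after receptor signalling, depends on the Ras pathway for its induction, and takes the sphingosine 1-phosphate receptor S1PR1 off the surface, which keeps cells in the tissue. CD5 is a scavenger receptor cysteine-rich protein that dampens receptor signalling, and its level on thymocytes is set by the strength of the signal they receive.

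The promoter table from RefSeq (GRCm38.p6) matched 1 of the 2 genes, Cd5. The window of 300 bases, from 250 before to 50 after the start of Cd5 on the minus strand of chromosome 19 (chr19:10738925-10739224), is given because the gene is followed through 8 cell states below. Capitals mark the 2 matches of the E-box letters CANNTG, the motif bound by basic helix-loop-helix factors of early T cells.

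Cd5: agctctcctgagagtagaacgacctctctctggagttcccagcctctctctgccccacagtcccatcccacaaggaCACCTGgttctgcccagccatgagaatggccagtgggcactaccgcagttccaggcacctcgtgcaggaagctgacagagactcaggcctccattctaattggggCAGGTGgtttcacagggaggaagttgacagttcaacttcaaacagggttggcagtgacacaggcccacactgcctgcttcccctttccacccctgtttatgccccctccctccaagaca

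The matches CACCTG and CAGGTG began 174 and 69 bases before the start, and 72.3% of 32851 promoter windows of this length hold the E-box letters on either strand. No match was found in the Cd5 window for the AP-1 site TGANTCA (in 7.81% of windows), the NFAT core GGAAAA (in 23.4%), the EGR site GCGNGGGCG (in 5.55%), the ETS site CCGGAAGT (in 3.89%), the cyclic AMP response element TGACGTCA (in 1.79%) or the TATA box TATAAA (in 13.6%), searched on both strands. The sequence is that of the C57BL/6J reference, and the NOD sequence was not analysed here.

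Array medians ran from 123.1 to 138.2 on the linear intensity scale, and Pearson's r across genes within a pair of replicates was at least 0.986. One array was unlike its group: NOD DN2-3 replicate 1 had an upper quartile only 6.82 times its lower one, and the median gene differed by 0.24 on the log2 scale within that pair, where the remaining pairs had 0.09 to 0.14. The quartile ratio was next lowest on the arrays of B6g7 DN4 (7.46 and 7.60) and at least 8.30 elsewhere. Il2ra, which encodes CD25, fell from DN2-3 to DN4, with differences of -2.54 to -3.27 on the log2 scale in the 4 settings of strain and transgene, as the sort requires. Cd8b1, a CD8 chain gene, rose over these stages by 4.13 in non-Tg B6g7, 2.69 in non-Tg NOD and 1.14 in BDC NOD. Cd8a rose by 2.99, 2.16 and 1.35 in turn. The mean of Cd8b1 in DN4 was 11.08 in B6g7, 9.44 in NOD, 8.02 in BDC/B6g7 and 9.16 in BDC/NOD. The part of this difference between DN4 groups in the results below was not tested. Of 7 matched gamma-delta T cell markers, 5 or 6 were above background on every array, and their summed linear intensity was 1066 to 1424 on non-Tg arrays, 4165 to 6611 on BDC DN2-3 arrays and 9016 to 17382 on BDC DN4 arrays. Of 5 matched mature T cell markers 4 were above background on every array, with sums of 1248 to 2947 on non-Tg, 2364 to 2631 on BDC DN2-3 and 2613 to 6583 on BDC DN4 arrays. Il7r had the highest mean of these markers in each DN2-3 group (10.07 to 11.11), so it weighs most in the DN2-3 sums. With the transgene in DN2-3 it fell, by 1.04 in B6g7 and 0.67 in NOD. S1pr1 (1.95 and 1.13), Ccr7 (1.23 and 1.36) and Klf2 (0.96 in both) rose in that comparison. Of 9 NK and NKT cell markers 4 or 5 were above background, and their sum was 2489 to 3203 in non-Tg DN2-3, 830 to 1013 in non-Tg DN4, 1974 to 3715 in BDC DN2-3 and 1824 to 4101 in BDC DN4. Nkg7, a granule protein gene, had the highest mean of that list in DN2-3 and in BDC DN4 (10.20 to 11.74), so it weighs most in those sums. It fell from DN2-3 to DN4 in non-Tg cells, with differences of -3.07 in B6g7 and -3.57 in NOD. With the transgene in DN4 it rose by 3.54 and 2.85, and Prf1 of that list by 0.53 and 0.38. Tbx21 of that list went the other way. It rose between stages in non-Tg cells by 0.87 and 0.45, and with the transgene in DN4 it was at -1.05 and -0.79. B cell markers (3 or 4 of 7 above background) summed to 686 to 1125, and myeloid and dendritic cell markers (4 to 6 of 9) to 693 to 1163. Within those lists Cd40lg, Il23r, Cd79a, Ms4a1, Ebf1, Itgam, Csf1r, Cd14, Ncr1, Klrb1c, Klrk1 and Klrd1 were not above background on any array. The part of other cell types, gamma-delta, mature T and NK cells included, in the results below was not tested.

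Cd69 was high before the stage change in non-Tg cells and high after it in BDC cells. In non-Tg DN2-3 cells its signal was 10.52 and 10.60 on the B6g7 arrays and 10.54 and 10.57 on the NOD arrays, in log2 intensity as throughout. In BDC DN2-3 cells it was 9.02 and 8.59 on B6g7 and 8.92 and 9.53 on NOD, so that all 4 BDC arrays lay below the 4 non-Tg arrays of this stage. In non-Tg DN4 cells the signal was 9.05 and 8.71 on B6g7 and 9.41 and 9.25 on NOD. BDC DN4 cells gave 10.21 and 10.32 on B6g7 and 11.03 and 11.26 on NOD, and here all 4 BDC arrays lay above the non-Tg ones. How many of all genes have arrays that separate in such a way, here and below, was not counted. On the linear scale the group means (geometric) ran from 448 in BDC/B6g7 DN2-3 to 2270 in BDC/NOD DN4. Among the 19531 genes of an array Cd69 stood between the 93.9th and 94.9th percentile in non-Tg DN2-3, between the 70.5th and 83.8th in BDC DN2-3, and between the 91.1st and 97.5th in BDC DN4. Its lowest array was far above the 5.98 that was taken as background.

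Cd5 was lowest in non-Tg DN2-3 cells and highest in BDC cells of B6g7. Its signal in non-Tg DN2-3 was 8.27 and 8.44 on the B6g7 arrays and 8.32 and 8.33 on the NOD arrays. In BDC DN2-3 it was 9.99 and 10.07 on B6g7 and 9.23 and 9.07 on NOD. The 4 BDC arrays thus lay above the 4 non-Tg arrays of the stage, with the B6g7 pair above the NOD pair. In non-Tg DN4 cells Cd5 read 9.38 and 9.22 on B6g7 and 8.94 and 8.78 on NOD. In BDC DN4 cells it read 10.30 and 10.26 on B6g7 and 9.38 and 9.23 on NOD. The BDC/NOD DN4 arrays were above those of NOD DN4 but overlapped those of B6g7 DN4. Geometric group means on the linear scale ran from 321 in NOD DN2-3 to 1242 in BDC/B6g7 DN4. The standard error of a difference between groups was 0.10 for Cd5 and 0.19 for Cd69.

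**Figure D1:**
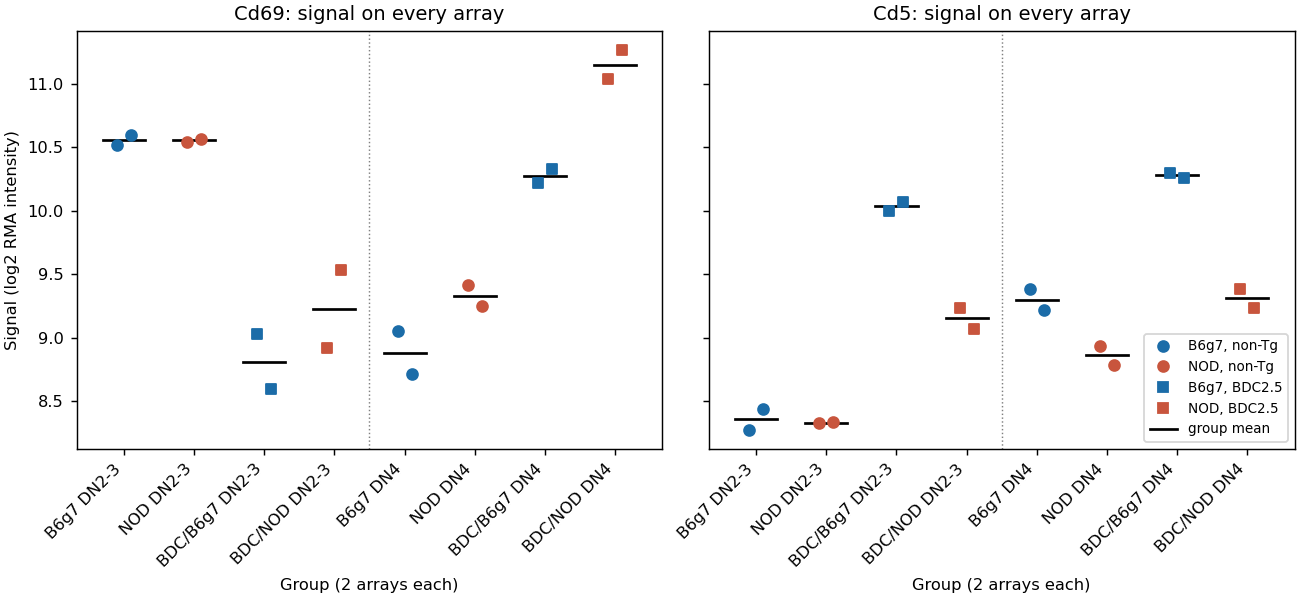
Signal of Cd69 (left) and Cd5 (right) in log2 RMA intensity on each of the 16 arrays, by group. Circles are non-Tg and squares BDC2.5 arrays, blue is B6g7 and red NOD, bars are the means of 2 arrays, and the dotted line parts DN2-3 from DN4. Cd69 was high in non-Tg DN2-3 (10.52 to 10.60) and in BDC DN4 (10.21 to 11.26), while Cd5 was lowest in non-Tg DN2-3 (8.27 to 8.44).

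The comparison of BDC with non-Tg cells asks how these reporters differ in thymocytes that carry a rearranged receptor transgene. Cd69 fell with the transgene in DN2-3 cells and rose with it in DN4 cells, in both strains. In DN2-3 the difference (BDC minus non-Tg) was -1.75 ± 0.19 (SE, 2 arrays a group) in B6g7, which is 3.36-fold lower (adjusted p = 2.354e-05, limma), and -1.33 ± 0.19 in NOD, or 2.51-fold lower (adjusted p = 2.367e-04). In DN4 it was 1.39 ± 0.19 in B6g7, or 2.62-fold higher (adjusted p = 2.965e-05), and 1.82 ± 0.19 in NOD, or 3.53-fold higher (adjusted p = 1.933e-05). The share of all 10689 tested genes called in these comparisons was 29.4% in B6g7 DN2-3, 35.6% in NOD DN2-3, 59.3% in B6g7 DN4 and 25.3% in NOD DN4. Such calls were therefore common, and both genes were called in all 4 comparisons. In the female arrays alone each BDC group has 1 array, which is taken to vary like the non-Tg groups. The Cd69 differences there were -1.97, -1.02, 1.44 and 1.93 in the same order as the shares, all past the threshold. With only the arrays compared in the fit, which has fewer degrees of freedom, the NOD DN2-3 difference was still -1.33 but missed it (adjusted p = 0.0542).

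Cd5 rose with the transgene in each of the 4 comparisons, and more so in B6g7 than in NOD. The difference in DN2-3 was 1.68 ± 0.10 in B6g7, or 3.19-fold (adjusted p = 1.314e-07), and 0.82 ± 0.10 in NOD, or 1.77-fold (adjusted p = 8.928e-05). In DN4 it was 0.98 ± 0.10 in B6g7, or 1.97-fold (adjusted p = 2.707e-06), and 0.45 ± 0.10 in NOD, or 1.37-fold (adjusted p = 0.00595). The last of these was the smallest change and the one least held by the arrays. It missed the threshold in the female arrays alone (0.38, adjusted p = 0.177), and also without replicate 2 of NOD DN4 (0.37) or replicate 1 of BDC/NOD DN4 (0.38).

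The size of the transgene effect was compared between stages with an interaction, the difference in DN4 minus that in DN2-3. For Cd69 it was 3.14 ± 0.27 in B6g7 (adjusted p = 7.596e-07) and 3.14 ± 0.27 in NOD (adjusted p = 5.270e-06), an 8.80-fold and an 8.85-fold change of the BDC to non-Tg ratio. For Cd5 the effect was smaller in DN4 than in DN2-3, at -0.69 ± 0.14 in B6g7 (adjusted p = 0.00113) and at -0.37 ± 0.14 in NOD, which missed the threshold (adjusted p = 0.0626). Of all tested genes, 54.3% were called in this interaction in B6g7 and 33.4% in NOD. Cd69 thus turned direction between the stages, and Cd5 kept its direction.

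The comparison of DN4 with DN2-3 asks how the reporters differ between cells sorted as CD44-CD25- and as CD25+. Whether the DN4 cells of a group arose from cells like its DN2-3 cells was not tested. The stage comparison uses the same arrays as the transgene comparison, so the values are another view of the same 8 means. Cd69 fell from DN2-3 to DN4 in non-Tg cells, by 1.68 on the log2 scale in B6g7 (adjusted p = 2.265e-05) and by 1.22 in NOD (adjusted p = 2.949e-04). In BDC cells it rose, by 1.46 in B6g7 (adjusted p = 2.732e-05) and by 1.92 in NOD (adjusted p = 3.307e-05), each with an SE of 0.19. Cd5 rose in non-Tg cells, by 0.94 ± 0.10 in B6g7 (adjusted p = 1.681e-05) and by 0.53 ± 0.10 in NOD (adjusted p = 0.00140). In BDC cells its difference between stages was 0.25 ± 0.10 in B6g7 (95% interval of the difference 0.03 to 0.47, adjusted p = 0.0586) and 0.16 ± 0.10 in NOD (-0.06 to 0.38, adjusted p = 0.363). Calls were made for 42.8% of tested genes in non-Tg B6g7, 50.8% in BDC B6g7, 38.6% in non-Tg NOD and 11.1% in BDC NOD. Cd69 was thus called in all 4 stage comparisons and Cd5 in the 2 of non-Tg cells. Without replicate 1 of NOD DN2-3, the array that stood apart, the non-Tg NOD differences were -1.23 for Cd69 and 0.53 for Cd5. The latter call was lost with array weights, which were equal within each group, or with only the arrays compared in the fit. The Cd5 difference in BDC B6g7 passed after quantile normalization again (0.32).

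**Figure D2:**
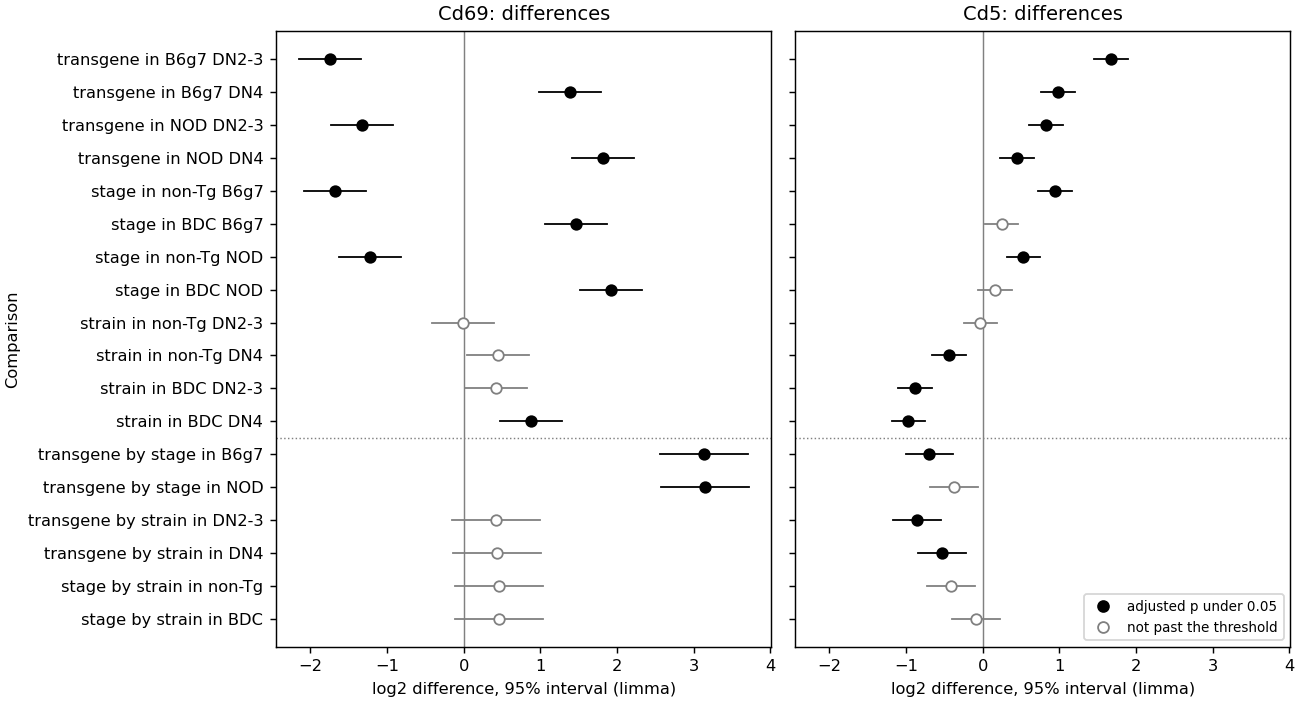
Differences of Cd69 (left) and Cd5 (right) in the 18 comparisons, in log2 units with the 95% interval of the limma fit; transgene is BDC minus non-Tg, stage DN4 minus DN2-3 and strain NOD minus B6g7. Filled points passed an adjusted p of 0.05, and interactions lie below the dotted line. The Cd69 transgene effect was negative in DN2-3 (-1.75 and -1.33) and positive in DN4 (1.39 and 1.82), and the Cd5 transgene effect was positive in both.

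The strain comparison, NOD minus B6g7, asks whether a diabetes-prone background alters these readouts. In non-Tg DN2-3 cells neither gene passed the test. The difference was -0.01 ± 0.19 for Cd69 (95% interval -0.41 to 0.40, adjusted p = 0.989) and -0.03 ± 0.10 for Cd5 (-0.25 to 0.19, adjusted p = 0.874), and the signs turned, to 0.030 and 0.040, when the arrays were quantile normalized again. In non-Tg DN4 cells Cd5 was 1.35-fold lower in NOD (-0.44 ± 0.10, adjusted p = 0.0125), while Cd69 was at 0.45 ± 0.19 (0.04 to 0.85, adjusted p = 0.102). Both groups hold female arrays only, so the difference was still -0.44 without the male arrays of other groups, but with less data behind the spread it missed the threshold (adjusted p = 0.0785). The call was also lost without replicate 1 of B6g7 DN4 or replicate 2 of NOD DN4 (both -0.36). Of the tested genes, 10.6% were called between strains in non-Tg DN2-3 and 18.7% in non-Tg DN4.

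In BDC cells Cd5 and Cd69 differed between strains in opposite directions in DN4. Cd5 was lower in NOD in both stages, at -0.88 ± 0.10 in DN2-3 (1.84-fold, adjusted p = 8.317e-05) and at -0.97 ± 0.10 in DN4 (1.96-fold, adjusted p = 7.916e-06). Cd69 was higher in NOD in DN4, by 0.88 ± 0.19 (1.84-fold, adjusted p = 0.00204). In DN2-3 the Cd69 difference of 0.42 ± 0.19 missed the threshold (0.01 to 0.82, adjusted p = 0.232), and the NOD arrays of 8.92 and 9.53 overlapped those of B6g7. It was 0.73 and passed (adjusted p = 0.0448) without replicate 1 of BDC/NOD DN2-3, 0.11 without replicate 2 of that group (adjusted p = 0.944), and 0.94 without all male arrays, which did not pass (adjusted p = 0.0729). Calls were made for 9.19% of tested genes in BDC DN2-3 and 41% in BDC DN4.

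The transgene effect on Cd5 differed between strains in both stages, and that on Cd69 was not shown to differ. The interaction (NOD minus B6g7) was -0.85 ± 0.14 for Cd5 in DN2-3 (adjusted p = 0.0104) and -0.53 ± 0.14 in DN4 (adjusted p = 0.0202). For Cd69 it was 0.42 ± 0.27 in DN2-3 (adjusted p = 0.557) and 0.43 ± 0.27 in DN4 (adjusted p = 0.275). In DN2-3 only 1.15% of tested genes were called in this interaction, and in DN4 20.1%. Leaving out 1 array ended the Cd5 call in 3 of 16 cases in DN2-3 and in 4 of 16 in DN4. In DN2-3 the value was -0.97 (adjusted p = 0.288) without the male arrays, -0.77 without replicate 1 of B6g7 DN2-3 or replicate 2 of BDC/NOD DN2-3 and -0.81 without replicate 2 of BDC/B6g7 DN2-3, and none of these passed. In DN4 it was -0.59 (adjusted p = 0.174) without the male arrays and -0.45 without replicate 2 of B6g7 DN4 or replicate 1 of NOD DN4, -0.51 without replicate 1 of BDC/B6g7 DN4 and -0.46 without replicate 2 of BDC/NOD DN4, again not past the threshold. Array weights also ended the call in DN2-3 (-0.85), and quantile normalization again that in DN4 (-0.44). The stage change did not differ between strains beyond the threshold for either gene, at 0.45 (adjusted p = 0.217) for Cd69 and -0.41 (adjusted p = 0.0700) for Cd5 in non-Tg cells and at 0.46 (adjusted p = 0.279) and -0.09 (adjusted p = 0.747) in BDC cells. These interactions were called for 9.05% and 15.8% of tested genes.

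Ordered by mean, the Cd69 levels fell into a low block and a high block. From the lowest, the order was BDC/B6g7 DN2-3 (8.81), B6g7 DN4 (8.88), BDC/NOD DN2-3 (9.23) and NOD DN4 (9.33), then BDC/B6g7 DN4 (10.27), NOD DN2-3 (10.55), B6g7 DN2-3 (10.56) and BDC/NOD DN4 (11.15). Each neighbouring pair among the first 4 overlapped on its arrays, and the 95% interval of each step included 0. The step from NOD DN4 to BDC/B6g7 DN4 was 0.94 (0.53 to 1.34), with no overlap. NOD DN2-3 and B6g7 DN2-3 overlapped too. The step of 0.28 from BDC/B6g7 DN4 to NOD DN2-3 had an interval that included 0 (-0.12 to 0.69), though their arrays did not overlap. Only neighbours in the order were compared here, not the ends of a block. The last step, to BDC/NOD DN4, was 0.59 (0.19 to 1.00).

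The Cd5 levels made an order of their own. From the lowest it was NOD DN2-3 (8.33), B6g7 DN2-3 (8.36), NOD DN4 (8.86), BDC/NOD DN2-3 (9.15), B6g7 DN4 (9.30), BDC/NOD DN4 (9.31), BDC/B6g7 DN2-3 (10.03) and BDC/B6g7 DN4 (10.28). The lowest pair did not differ beyond its spread, and neither did B6g7 DN4 from BDC/NOD DN2-3 or from BDC/NOD DN4. The largest step, 0.72 (0.50 to 0.94), lay below the BDC cells of B6g7.

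Placed against each other, the 2 reporters separated the groups in different ways. Non-Tg cells had high Cd69 with low Cd5 in DN2-3 and low Cd69 with higher Cd5 in DN4. BDC cells had low Cd69 in DN2-3 and high Cd69 in DN4, with little difference in Cd5. BDC/NOD DN4 had the highest Cd69 of all groups (11.15) with a Cd5 of 9.31, and BDC/B6g7 DN4 the highest Cd5 (10.28) with a Cd69 of 10.27. Over the 16 arrays Pearson's r between the genes was -0.309, which describes 8 groups of paired arrays rather than independent points. In bulk RNA, a change in the share of cells that express a gene and a change in RNA per cell cannot be told apart.

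**Figure D3:**
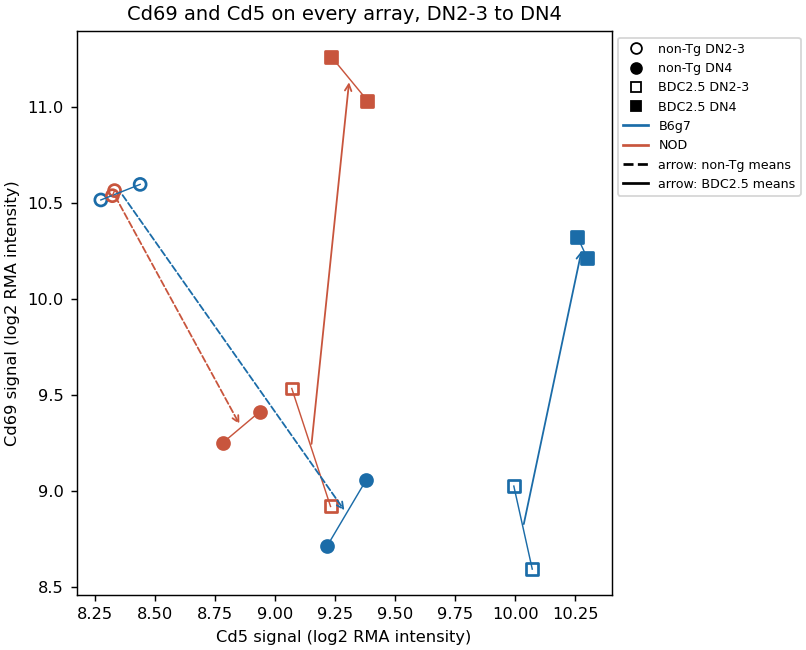
Cd69 against Cd5, both in log2 RMA intensity, on each of the 16 arrays; thin lines join the 2 arrays of a group and arrows run from the DN2-3 to the DN4 group mean. Circles are non-Tg and squares BDC2.5, open DN2-3 and filled DN4, blue B6g7 and red NOD. The non-Tg arrows run down and to the right (Cd69 fell by 1.68 and 1.22, Cd5 rose by 0.94 and 0.53), and the BDC arrows run almost straight up (Cd69 rose by 1.46 and 1.92).

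4 lists of pathway genes were read beside them, each without Cd69 and Cd5. The gamma-delta marker sums given above were also highest in BDC DN4, and their part in these counts was not tested. The first held 26 genes that receptor signalling induces, of which 25 were tested. With the transgene in DN4, 20 of the 25 rose and 1 fell in B6g7 (median difference 1.31, against -0.02 over all tested genes), and 14 rose and 1 fell in NOD (0.62, against -0.03). All tested genes rose in 30.1% and 10.6% of cases in these comparisons, and fell in 29.2% and 14.8%. Pdcd1, the inhibitory receptor PD-1, rose by 3.26 in B6g7 and 2.26 in NOD, and Egr2, an immediate-early transcription factor, rose by 1.27 and 0.80. Nr4a1, an orphan nuclear receptor used as a reporter of receptor signal in its own right, rose by 1.97 in B6g7 DN4, and was at 0.91 in NOD DN4 (adjusted p = 0.0769). Myc was the gene that fell in B6g7 (-1.58) and Id3 the one that fell in NOD (-0.41). In the female arrays alone the NOD count was 6 and 0, with a median of 0.58, where 5.73% of all genes were called in either direction.

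In DN2-3, where Cd69 fell and Cd5 rose with the transgene, the induced genes were called in both directions. Their shares in B6g7 were no higher than those of all tested genes. In B6g7 4 rose and 2 fell (median 0.14), against 16.8% and 12.5% of all tested genes, and in NOD 8 rose and 5 fell (0.22), against 21.5% and 14.1%. Without replicate 1 of NOD DN2-3 fewer rose and more fell in NOD, and the median was -0.02. Of all calls in that NOD comparison 60.5% were higher, or 52.6% after quantile normalization again and 71.4% with each array centred on its median; in B6g7 the shares were 57.4%, 48.2% and 66.6%. Pdcd1 rose by 1.86 in B6g7 and 1.71 in NOD, as Cd5 did, and Junb, a subunit of AP-1, fell by 0.91 and 0.65, as Cd69 did. Egr2 was at -0.13 and -0.21 (adjusted p = 0.505 and 0.251).

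Between stages the induced genes fell in non-Tg B6g7, where 1 of 25 rose and 13 fell (median -0.59), against 17.8% and 25% of all genes. They rose in BDC B6g7, with 13 up and 3 down (0.64), against 20.4% and 30.4%. In BDC NOD 7 rose and 0 fell (0.25), against 7.67% and 3.41%. In the female arrays alone, 1 BDC array against 1, the counts were 2 and 0, with 1.09% of all genes called. In non-Tg NOD 4 rose and 6 fell (-0.10), against 26.3% and 12.3%. Without replicate 1 of NOD DN2-3 fewer rose and more fell. The share of higher among all calls, 68.1%, was 54.4% after quantile normalization and 80.9% after centring. Tnfaip3, the inhibitor of NF-kappaB signalling also known as A20, rose by 1.51 in BDC B6g7 and 1.06 in BDC NOD. Between strains in BDC DN4, where Cd69 was higher in NOD, 3 of the 25 were higher in NOD and 12 lower. Their median was -0.53, against 0.05 over all tested genes. Of all tested genes 41% were called there, and 62.8% of those calls were higher in NOD (52.2% after quantile normalization again).

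Negative regulators of receptor signalling, the class to which Cd5 belongs, were tested for 23 genes. In DN4 the transgene raised 19 and lowered 2 in B6g7 (median 0.99), and raised 9 and lowered 0 in NOD (0.38). Fewer were called in NOD in the female arrays alone, and the same held for all tested genes. All tested genes rose in 30.1% and fell in 29.2% of cases in B6g7, and in 10.6% and 14.8% in NOD. In DN2-3 it raised 7 and lowered 4 in B6g7 (0.05) and raised 5 and lowered 5 in NOD (0.09), and those medians lay near the 0.03 and 0.06 of all genes, of which 16.8% rose and 12.5% fell in B6g7 and 21.5% and 14.1% in NOD. Cd6, the scavenger receptor most like Cd5, rose by 1.20 and 1.17 in DN2-3 and by 0.77 in B6g7 DN4, and was at 0.24 in NOD DN4 (adjusted p = 0.249). Cblb, a ubiquitin ligase that restrains activation, fell by 1.47 and 1.54 in DN2-3. Dgka, a kinase that removes diacylglycerol, rose by 1.75 and 1.26 in DN4. From DN2-3 to DN4, 4 of 23 rose and 12 fell in non-Tg B6g7 (all genes 17.8% and 25%) and 3 rose and 8 fell in non-Tg NOD (26.3% and 12.3%). In BDC cells 12 rose and 1 fell in B6g7 (20.4% and 30.4%) and 6 rose and 0 fell in NOD (7.67% and 3.41%). With female arrays alone, 1 BDC array against 1 and the spread from the non-Tg groups, those BDC counts were 4 and 0, and 0 and 0, and 22.8% and 1.09% of all genes were called.

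Receptor chains and proximal signalling proteins, the machinery upstream of both reporters, were tested for 24 genes. With the transgene 16 rose and 2 fell in B6g7 DN4 (median 0.84) and 12 rose and 3 fell in NOD DN4 (0.40). Fewer were called in NOD DN4 in the female arrays alone, where fewer of all tested genes were called too. Over all tested genes these shares were 30.1% and 29.2% in B6g7 and 10.6% and 14.8% in NOD. In DN2-3 on all arrays the balance was the other way, with 5 up and 8 down in B6g7 (-0.18) and 2 up and 11 down in NOD (-0.28). All genes rose and fell in 16.8% and 12.5% of cases in B6g7 and in 21.5% and 14.1% in NOD. In the female arrays alone fewer of all genes were called, and more members fell than rose in NOD but not in B6g7. Zap70, the kinase that binds the phosphorylated CD3 chains, rose in all 4 comparisons, by 1.46 and 0.94 in DN2-3 and 1.48 and 0.68 in DN4 (B6g7 and NOD in turn). Ptcra, the pre-TCR alpha chain, fell in all 4, by 1.84, 1.06, 1.46 and 0.83. From DN2-3 to DN4, 4 rose and 15 fell in non-Tg B6g7 (-0.41) and 2 and 13 in non-Tg NOD (-0.31), while 17 rose and 3 fell in BDC B6g7 (0.57) and 11 and 1 in BDC NOD (0.36). Over all genes the shares were 17.8% and 25%, 26.3% and 12.3%, 20.4% and 30.4%, and 7.67% and 3.41% in turn. The BDC counts were 10 and 0, and 1 and 0, in the female arrays alone, again 1 BDC array against 1, where 22.8% and 1.09% of all genes were called.

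Partners of CD69 and genes of thymic exit were tested for 12 genes. S1pr1, the receptor that CD69 takes off the surface, had signals from 6.82 to 7.92 on the non-Tg arrays and from 8.88 to 11.62 on the BDC arrays. It rose with the transgene in all 4 comparisons, by 1.95 in B6g7 DN2-3 (adjusted p = 1.663e-07), 1.13 in NOD DN2-3 (2.930e-05), 4.52 in B6g7 DN4 (1.777e-11) and 2.74 in NOD DN4 (4.427e-09). Cd69 and S1pr1 thus went opposite ways with the transgene in DN2-3 and the same way in DN4. In BDC DN4 cells S1pr1 was lower in NOD than in B6g7, at -1.78 ± 0.12 (adjusted p = 2.625e-07), where Cd69 was higher by 0.88. Klf2, the transcription factor that drives S1pr1, rose by 0.96 in DN2-3 of both strains and by 2.09 and 1.06 in DN4. Ccr9, a chemokine receptor of thymocytes, fell by 1.95 in B6g7 DN2-3 and rose by 3.09 and 3.08 in DN4, so it turned between stages in B6g7 as Cd69 did. Of the 12, 10 rose and 0 fell in B6g7 DN4 (median 1.34) and 8 and 0 in NOD DN4 (0.57). In the female arrays alone fewer were called in NOD DN4, of the 12 as of all genes. In DN2-3 6 rose and 2 fell in B6g7 (0.27), and 4 and 0 in NOD (0.29, or 0.10 without replicate 1 of NOD DN2-3). All genes rose and fell in 30.1% and 29.2% of cases, 10.6% and 14.8%, 16.8% and 12.5%, and 21.5% and 14.1% in turn. Between stages 1 rose and 4 fell in non-Tg B6g7 (all genes 17.8% and 25%), 0 and 1 in non-Tg NOD (26.3% and 12.3%), 8 and 2 in BDC B6g7 (20.4% and 30.4%) and 4 and 0 in BDC NOD (7.67% and 3.41%). With female arrays alone, 1 BDC array against 1, fewer of the 12 and fewer of all tested genes were called in BDC cells of both strains. S1pr1, Klf2 and Ccr7 of this list are also on the list of mature T cell markers, where Il7r fell with the transgene in DN2-3.

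**Figure D4:**
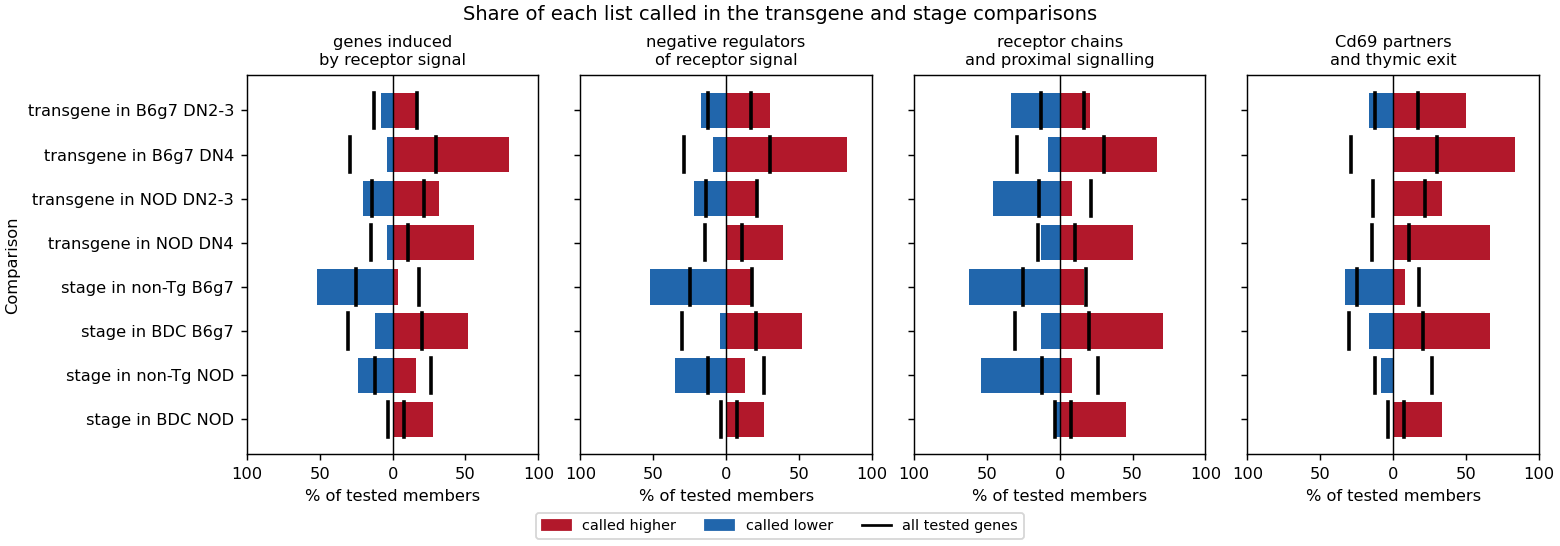
Share of tested genes called higher (red, to the right) and lower (blue, to the left) in each of the transgene and stage comparisons, as a percent of the members tested, for genes induced by receptor signal (25), negative regulators (23), receptor chains and proximal signalling (24) and Cd69 partners and thymic exit (12). Black ticks mark the shares over all 10689 tested genes. With the transgene in B6g7 DN4, 20 of 25 induced genes were called higher, where 30.1% of all genes were.

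Cd69 lies on chromosome 6 among other lectin genes of the natural killer complex, with Klrb1f, Clec2e and Clec2d on one side and Clec2m, Clec12a and Clec12b on the other. Of these Klrb1f, Clec2d and Clec12a were tested. Clec2d, a C-type lectin close to Cd69, fell with the transgene in DN2-3 by 1.02 in B6g7 (adjusted p = 0.0151), and in NOD it fell by 2.05 (adjusted p = 1.874e-04). In DN4 it rose by 1.30 in B6g7 (adjusted p = 0.00127) and was at 0.65 in NOD (adjusted p = 0.107). In non-Tg cells it fell from DN2-3 to DN4, by 1.60 in B6g7 and 2.23 in NOD, as Cd69 did. In BDC cells it rose between stages by 0.73 in B6g7 (adjusted p = 0.0445) and was at 0.47 in NOD (adjusted p = 0.328). In BDC DN4, however, Clec2d was lower in NOD (-1.11, adjusted p = 0.00597), where Cd69 was higher. Klrb1f rose with the transgene in B6g7 DN4 by 1.05 (adjusted p = 2.054e-06) and fell with it in NOD DN2-3 by 0.62 (adjusted p = 8.215e-04). From DN2-3 to DN4 Klrb1f fell in non-Tg cells, by 0.84 in B6g7 and 1.00 in NOD, and rose in BDC B6g7 by 0.47, as Cd69 did. It fell between these stages in BDC NOD by 0.56 (adjusted p = 0.00442), where Cd69 rose by 1.92. In BDC DN4 it was lower in NOD (-1.60, adjusted p = 1.855e-07). Clec12a rose with the transgene in DN4 by 0.71 in B6g7 and 2.11 in NOD and was at -0.33 and -0.67 in DN2-3, of which the second passed (adjusted p = 0.0126). Its stage difference was -0.45 in non-Tg B6g7 (adjusted p = 0.0607) and -1.15 in non-Tg NOD. In BDC cells that difference was 0.59 in B6g7 and 1.63 in NOD. Clec12a too was lower in NOD in BDC DN4 (-0.76, adjusted p = 0.00419), where Cd69 was higher.

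Cd5 lies on chromosome 19 beside its relative Cd6, with Slc15a3 and Tmem132a beyond it and Vps37c, Pga5 and Vwce on the other side. Vwce, Vps37c, Cd6 and Tmem132a were tested. Cd6 rose from DN2-3 to DN4 in non-Tg cells, by 0.72 in B6g7 and 1.06 in NOD. In BDC cells it was at 0.30 (adjusted p = 0.101) and 0.13 (adjusted p = 0.624), and like Cd5 it was lower in NOD than in B6g7 in BDC cells, at -0.52 in DN2-3 (adjusted p = 0.0359) and -0.69 in DN4 (adjusted p = 0.00165). Unlike Cd5 it was already lower in NOD in non-Tg DN2-3 (-0.50, adjusted p = 0.0416). Vwce went the other way from Cd5 with the transgene in DN2-3, at -1.60 and -1.54 (adjusted p = 5.437e-04 and 7.124e-04), and Tmem132a was called in none of the transgene comparisons (-0.21 to 0.02).

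Likeness to each reporter was ranked by Pearson's r of log2 signal over the 16 arrays, among 3015 tested genes whose group means span at least 1 log2 unit. For Cd69 the highest were Fam214a (0.869), Ppm1h (0.848), the UDP-glucose receptor P2ry14 (0.847), Cyp4f13 (0.843) and Arrdc3 (0.839). The lowest were Med11 (-0.782), Dnajc15 (-0.777), Cyp20a1 (-0.776), Cdca3 (-0.759) and Nrgn (-0.749). For Cd5 the highest were Cd6 (0.938), Zap70 (0.929), Rapgef6 (0.921), the interleukin 2 receptor beta chain Il2rb (0.919) and Gnptab (0.918). The most opposite to Cd5 were the Ets factor Spib (-0.977), Ptcra (-0.971), Camkv (-0.952), Tifa (-0.945) and the recombinase gene Rag1 (-0.938). The closest profiles were thus nearer for Cd5 than for Cd69 in both directions. The arrays come as 8 groups, so r describes the order of group levels more than of single arrays.

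**Figure D5:**
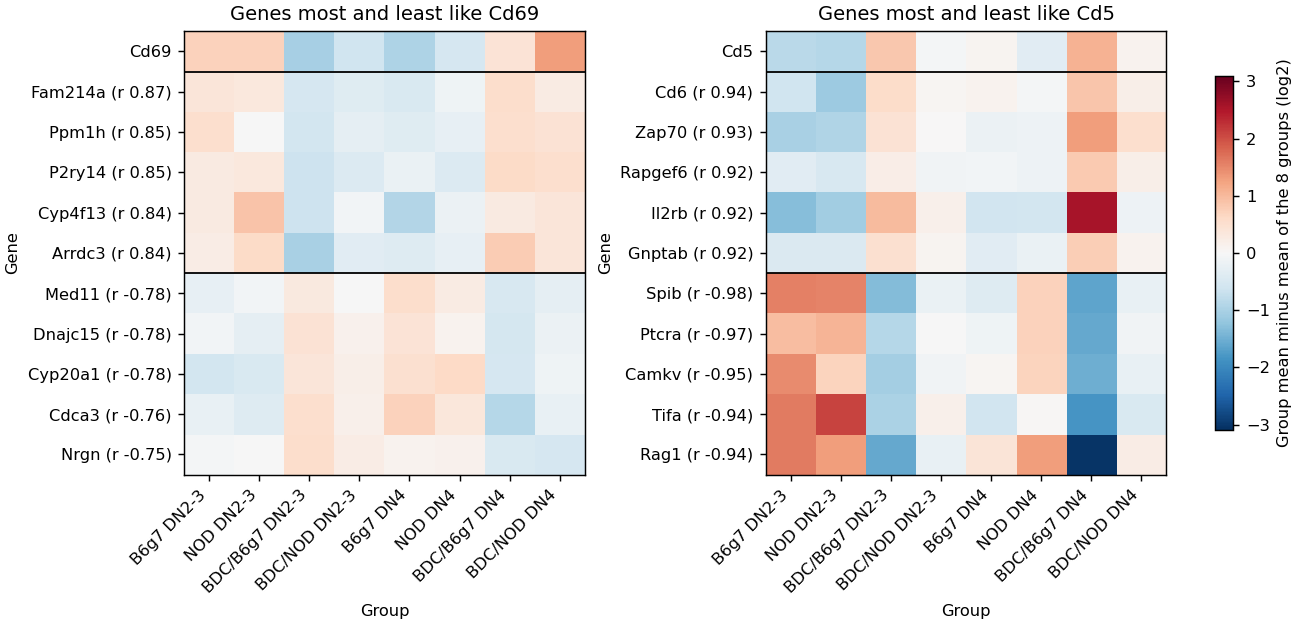
Group means of the genes most and least like Cd69 (left) and Cd5 (right), as the log2 difference from the mean of the 8 groups (red higher, blue lower), with Pearson's r over 16 arrays beside each name. The reporter is in the first row, the 5 genes of highest r below it and the 5 of lowest r at the bottom. Cd6 and Zap70 follow Cd5 (0.938 and 0.929), and Spib and Ptcra run opposite to it (-0.977 and -0.971).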

How the data were processed

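Total RNA of sorted thymocytes was measured on 16 Affymetrix Mouse Gene 1.0 ST arrays with 1 biotin label, 2 in each of 8 groups. Linear intensity values were deposited, which the authors computed by RMA in Affymetrix Power Tools per the submitters' processing notes, with versions not given in the sources used here. RMA includes a quantile normalization, which acts against a difference shared by most genes. The deposited values still differed between arrays, with quartile ratios from 6.82 to 10.3. The median of all genes for strain in non-Tg DN4 was 0.13, and 0.02 after quantile normalization again. Part of a shared difference may thus remain in the values. These deposited values covered 25108 probe sets and ran from 5.82 to 21466, of which 21157 had 1 gene symbol, 1341 several and 2610 none, with symbols updated by Entrez identifier.

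Values were put on the log2 scale with no pseudocount. The brightest probe set stood for each of 19531 genes, and 10689 genes whose highest group mean reached 7.05 (the median of named probe sets) were tested. The model was fitted in R 4.3.3 by limma 3.58.1, after reading with data.table, version 1.17.8, with lmFit and eBayes to the 8 group means on all arrays (8 residual and 5.06 prior degrees of freedom), two-sided, with Benjamini-Hochberg adjustment over all tested genes of each comparison at 0.05. There were 12 differences between groups and 6 interactions, and they share groups. Errors are standard errors of this fit, and intervals are at 95%. The script was tested on simulated data. The number of arrays limits the precision. Background, 5.98, was the highest signal of 3 Y-linked genes on a female array, and these genes read 9.10 to 10.2 on the arrays labelled male.

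Both genes and all lists were chosen with earlier results of these data known. Of 153 list entries 139 matched a probe set. Named genes were, for each list, up to 3 called higher and 3 called lower with the largest difference in each transgene and stage comparison, with a few reporters always available, and, for likeness, the 5 genes of highest and of lowest r, predicted genes left out. Chromosomal neighbours (3 on each side) came from the RefSeq annotation (GRCm38.p6), since the build of the array files is not given in the sources used here. Alternatives were no filter, a filter at 8, quantile normalization again, centring, the mean of all probe sets, array weights, sex as a term, a replicate block, only the arrays compared, signals raised to background, no male arrays, and each array left out. Recounting the lists under scaling and without doubtful arrays was chosen after seeing the data. Replicate numbers were not taken to pair the samples, since the correlation of deviations between groups ran from -0.25 to 0.58 over 28 pairs of groups, with 12 over 0.1. In the 4 BDC groups the number also carries sex, replicate 1 being male.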

Additional observations from a re-analysis of the deposited data

Results flagged for a closer look

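In 5 cases the effect of the transgene differed between stages or strains by the test of the difference itself. For Cd69 it was larger in DN4 than in DN2-3 by 3.14 in B6g7 (adjusted p = 7.596e-07, limma) and by 3.14 in NOD (adjusted p = 5.270e-06), with the direction turned from lower to higher. For Cd5 it was smaller in DN4 than in DN2-3 in B6g7, at -0.69 (adjusted p = 0.00113). For Cd5 it was also smaller in NOD than in B6g7, at -0.85 in DN2-3 (adjusted p = 0.0104) and at -0.53 in DN4 (adjusted p = 0.0202). Groups of 2 arrays are too small to test a single array as an outlier.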

How the results depend on the processing

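Each value of the 2 genes was recomputed under 11 alternative settings and with each of the 16 arrays left out. Of the 396 values from other settings 377 kept their direction and their side of the threshold, as did 558 of 576 with an array left out. The replicate block changed no call of either gene (Cd69 transgene by stage 3.14 in B6g7, Cd5 transgene by strain in DN4 -0.53), and no count of calls by over 1.5 times. The numbers were not taken to pair the samples, although they match sex in the BDC groups and 12 of 28 pairs of groups correlated over 0.1.

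With only the arrays compared in the fit, calls were lost for the Cd69 transgene effect in NOD DN2-3 (-1.33, adjusted p = 0.0542), the Cd5 stage difference in non-Tg NOD (0.53) and the Cd5 transgene by strain interaction in DN2-3 (-0.85). They were gained for the Cd5 stage difference in BDC B6g7 (0.25) and the Cd69 strain difference in non-Tg DN4 (0.45). Array weights ended the Cd5 stage call in non-Tg NOD (0.53) and the Cd5 transgene by strain call in DN2-3 (-0.85). The weights were equal for both arrays of each group (0.18 in NOD DN2-3). They could thus not weigh replicate 1 of NOD DN2-3 apart from replicate 2. Without the 4 male arrays the Cd5 calls for the transgene in NOD DN4 (0.38), strain in non-Tg DN4 (-0.44) and transgene by strain in DN2-3 (-0.97) and DN4 (-0.59) were lost, and the Cd69 stage by strain value in BDC cells turned to -0.0040. Quantile normalization again turned both strain differences in non-Tg DN2-3 (0.030 for Cd69, 0.040 for Cd5), ended the Cd5 transgene by strain call in DN4 (-0.44), and brought calls for the Cd5 stage difference in BDC B6g7 (0.32) and the Cd5 stage by strain interaction in non-Tg cells (-0.65). The filter at 8 gave the former too (0.25), and centring a call for Cd5 transgene by stage in NOD (-0.44). The cause was not tested, beyond fewer arrays in the fits of only the arrays compared and of the female arrays.

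With 1 array left out, values of Cd5 ran from 0.37 to 0.53 for the transgene in NOD DN4, 0.21 to 0.28 for stage in BDC B6g7 (called without either NOD DN2-3 array), -0.52 to -0.36 for strain in non-Tg DN4, -0.93 to -0.77 and -0.61 to -0.45 for transgene by strain in DN2-3 and DN4, and -0.49 to -0.33 for stage by strain in non-Tg cells (called without NOD DN2-3 replicate 2). The strain values in non-Tg DN2-3 ran from -0.046 to 0.036 for Cd69 and -0.11 to 0.053 for Cd5, positive without B6g7 DN2-3 replicate 2 and, for Cd69, without NOD DN2-3 replicate 1. Cd69 ran from 0.11 to 0.73 for strain in BDC DN2-3.

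The number of genes called, the background of every count, moved more than that of the members. Over all settings it was 977 to 4668 for the transgene in B6g7 DN2-3 (3138 as reported), 297 to 5784 in NOD DN2-3 (3808) and 613 to 4491 in NOD DN4 (2709). For stage it was 2821 to 5909 in non-Tg B6g7 (4571), 2435 to 6399 in BDC B6g7 (5426), 588 to 5920 in non-Tg NOD (4124) and 116 to 3755 in BDC NOD (1185). For strain it was 81 to 4742 (1130) and 417 to 4379 (2004) in non-Tg DN2-3 and DN4, and 133 to 1710 (982) and 1731 to 6012 (4387) in BDC. For transgene by stage it was 3676 to 6699 in B6g7 (5805) and 845 to 5326 in NOD (3569), for transgene by strain 4 to 2744 (1.15% of genes as reported) and 321 to 3734 (2152), and for stage by strain 5 to 5578 (967) and 12 to 3245 (1684). The median of all genes for strain in non-Tg DN4, 0.13, was 0.02 after quantile normalization, and that for stage in non-Tg NOD, 0.10, was 0.20 after centring.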
